A study of Homo sapiens with 4 samples.

Results

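The 39 genes described here are immediate early genes and the feedback genes of the ERK pathway, taken by symbol from the 39519 genes of the TPM table that covers all libraries. Each symbol was found in the table. They fall into 7 AP-1 genes (FOS, FOSB, FOSL1, FOSL2, JUN, JUNB, JUND), 7 EGR and KLF genes, 8 DUSP phosphatases, 6 SPRY and SPRED genes, 3 ETV genes and 8 other early response genes (IER2, IER3, IER5, PHLDA1, MAP3K8, SRF, ZFP36, ZFP36L1). Ribosome-depleted total RNA was sequenced from U2OS, a human osteosarcoma line. The study had 2 sh-NC libraries, from control cells given DMSO and taken at 72 h, and 2 sh-PURB libraries, from cells in which doxycycline at 5 µg/ml induced a hairpin against PURB for 72 h. Doxycycline and knockdown therefore cannot be told apart, and the labels name neither the hairpin sequence nor a clone, nor say whether libraries came from separate cultures. Every p-value below thus reflects the spread among 4 libraries, and that spread may be no more than technical.

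Immediate early genes are transcribed within minutes of a growth signal from factors already present in the cell. ERK, the last kinase of the RAS, RAF and MEK cascade, phosphorylates ternary complex factors that sit with SRF on serum response elements, and the products of that wave include the AP-1 and EGR transcription factors. A later part of the response acts back on the cascade: DUSP phosphatases remove phosphate from ERK, JNK or p38, SPRY and SPRED proteins restrain signalling upstream of ERK, and ZFP36 proteins destabilise AU-rich messenger RNAs. In cells with steady ERK activity, DUSP6, SPRY2, SPRY4, PHLDA1, ETV4 and ETV5 are widely read as markers of pathway output.

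TPM scales each gene by transcript length and by the library total, so levels may be compared between genes, but the read depth behind each value is unknown. RN7SL1, RN7SL2, RN7SK, RMRP and RPPH1 together held 62.8% and 60.1% of the TPM in sh-NC, against 65.8% and 64.2% in sh-PURB. Protein-coding genes held 25.5% to 27.2% of a library. The TPM of a messenger RNA, and whether it reaches a filter, therefore depends on those shares as well. PURB, the target of the hairpin, was listed at 5.29 and 6.55 TPM in sh-NC, against 2.46 and 2.69 TPM in sh-PURB. Its limma adjusted p was 0.102, and an exact two-sided permutation test gave 0.33, the smallest p for 2 libraries against 2. Between 13298 and 14207 genes reached 1 TPM in a library. Of 9 mesenchymal or osteoblast markers, VIM (298 to 342 TPM) and SPARC (220 to 262 TPM) were abundant, whereas ALPL and BGLAP did not exceed 0.239 and 0.224 TPM and IBSP was listed at 0 in every library. SPP1, encoding osteopontin, was at 33.8 and 30.7 TPM in sh-NC, against 6.59 and 5.80 TPM in sh-PURB, and COL1A1 at 13.6 and 39.7 against 9.53 and 21.6 TPM. Their part in the results below was not tested. The 16 markers of epithelial, haematopoietic, endothelial and neural cells reached at most 4.91 TPM, and their summed level was 14.4 to 16.3 TPM in sh-NC and 14.2 to 16.5 TPM in sh-PURB. In a bulk library, fewer cells with a transcript and less of it per cell cannot be told apart.

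Of the 31 members that could be tested, 24 had a difference below 0 in sh-PURB, beside 8334 of all 14269 tested genes. MAP3K8 was far higher, but no member passed the threshold over all genes. Differences were fitted with limma on log2(TPM + 1), which understates changes of low genes, for genes at 1 TPM or more in at least 2 libraries, and a gene was called at a Benjamini-Hochberg adjusted p under 0.05. Of the 39 genes, 31 could be tested and 8 were too low (EGR2, EGR3, KLF2, KLF4, DUSP4, DUSP6, SPRY1, SPRY4). Limma called 0 of the 31, where it called 0.287% of all 14269 tested genes. At an unadjusted p under 0.05, 8 of the 31 were lower and 1 was higher, beside 9.53% and 5.77% of all tested genes. In 16 of the 31 both sh-PURB libraries lay below both sh-NC libraries, beside 29.3% of all tested genes, and in 2 they lay above, beside 18.6%. The 16 include ZFP36, which passed the filter through the sh-NC libraries alone and so adds no separate support. The median difference of the 31 was -0.28, that of all tested genes -0.06.

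**Figure D1:**
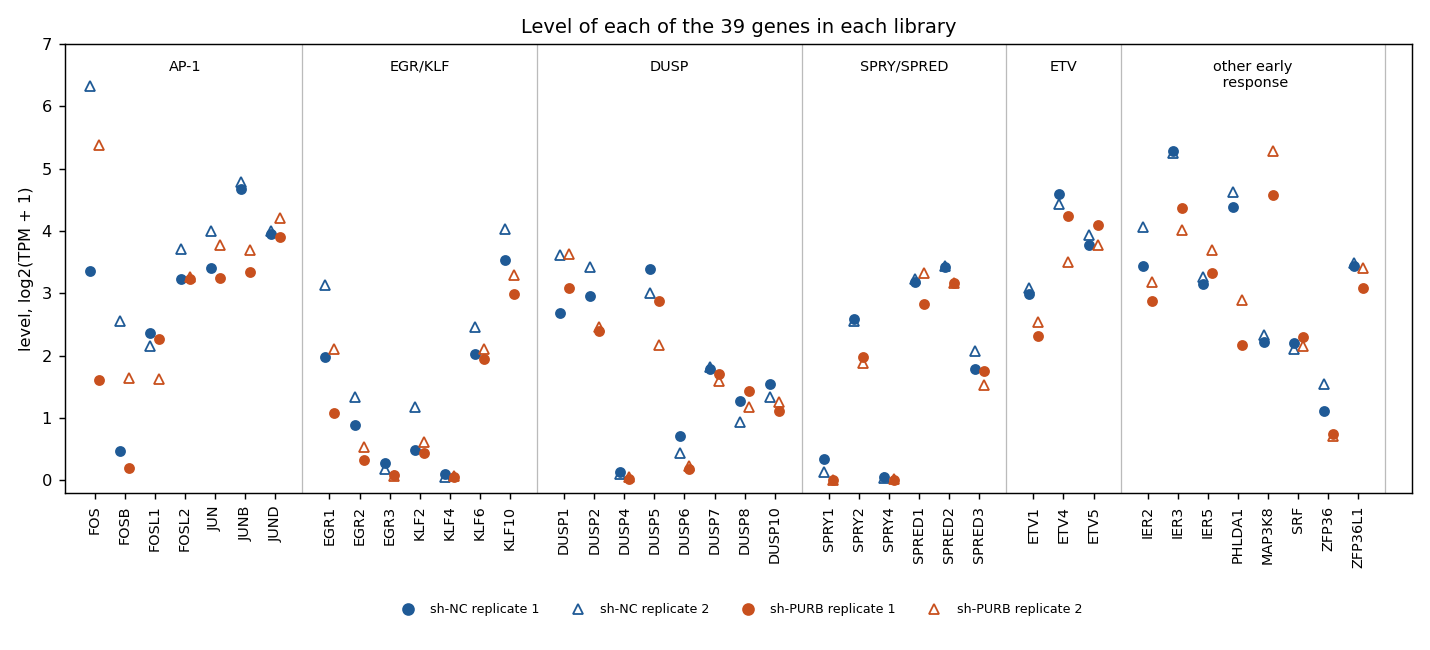
Level of each of the 39 genes, as log2(TPM + 1) on the vertical axis, in the 2 sh-NC (blue) and 2 sh-PURB (orange) libraries, with circles for replicate 1 and open triangles for replicate 2. The sh-PURB points of MAP3K8 stand above its controls, those of PHLDA1, IER3 and JUNB stand below, and FOS and FOSB spread most between libraries of a group.

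The count depended on the scale of the libraries. TPM was recomputed to a common sum after dropping mitochondrial genes and every gene that held over 1 percent of any library. All genes then had a median difference of 0.08, a shift of 0.13. In that setting 10 of the 31 genes lay below both controls, beside 18.2% of all genes, and 4 lay above, beside 31.6%. Over all genes that setting called 26 higher and 34 lower, in place of 12 higher and 29 lower. Among the members it called MAP3K8 alone, as higher (limma adjusted p = 0.0339). Among the 31 genes 23 still had a difference below 0, against 24 before, and the gene that crossed 0 was SPRED1. The matching count over all genes was not computed in that setting. Of 3 further refits that tested other sets of genes, 2 called members and the one without a filter called none. With protein-coding genes only, brought to one common sum, where 34 of the 39 could be tested, limma called MAP3K8 higher and PHLDA1, JUNB and IER3 lower, beside 1.13% of genes called higher and 1.8% called lower. A filter at 5 TPM called the same 4 genes of 20 tested, beside 0.361% higher and 1.05% lower. MAP3K8 passed that filter through the sh-PURB libraries alone, so its call there adds no separate support. Both refits changed the estimate of the spread as well as the number of genes. In the protein-coding refit the rescaling also raised every TPM before the filter and the pseudocount of 1 were applied. Both therefore reached lower deposited levels, and the differences moved too. They went from 2.65 to 2.91 for MAP3K8, -1.96 to -2.07 for PHLDA1, -1.21 to -1.22 for JUNB and -1.07 to -1.05 for IER3. Leaving out sh-NC replicate 1 moved the median of the 31 from -0.28 to -0.46.

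**Figure D2:**
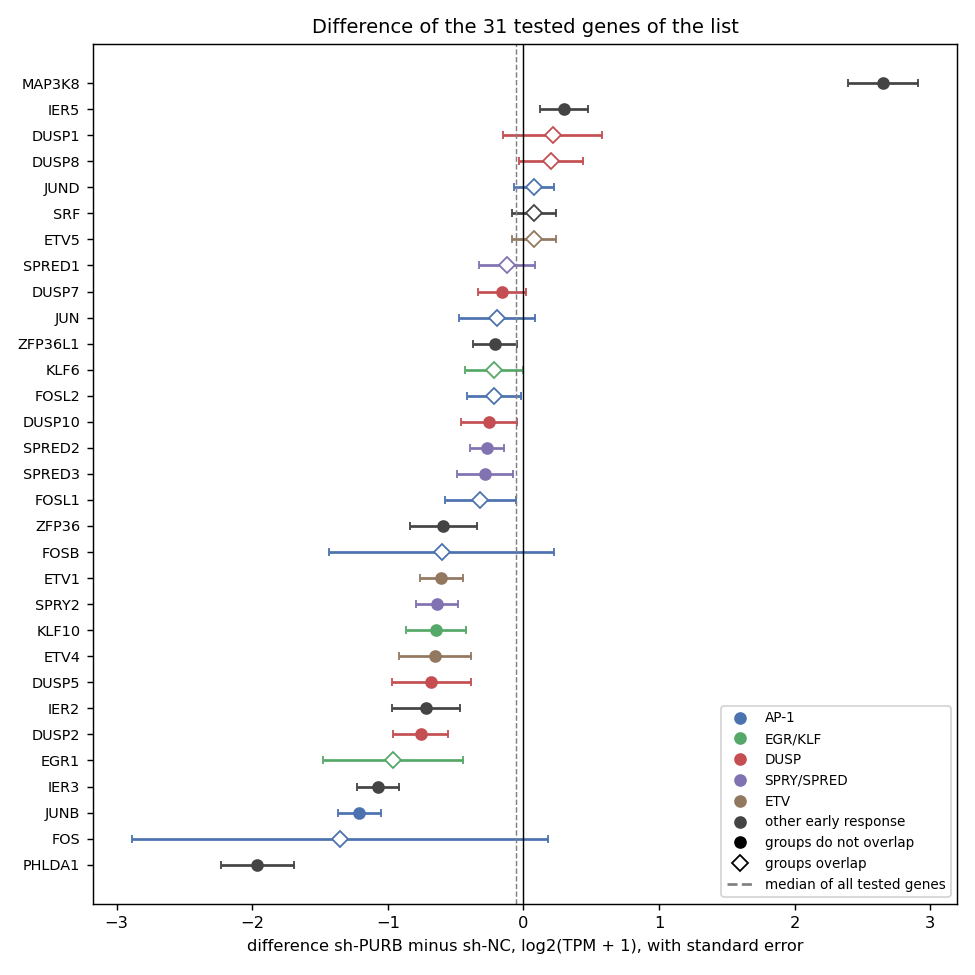
Difference of each of the 31 tested genes between sh-PURB and sh-NC on the log2(TPM + 1) axis, with its limma standard error. Filled circles mark genes whose groups do not overlap, open diamonds those whose groups overlap, and the dashed line the median of all tested genes at -0.06. Differences run from -1.96 for PHLDA1 to 2.65 for MAP3K8.

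Of the 7 AP-1 genes, only JUNB (14.3%) had groups that did not overlap, beside 29.3% of all tested genes below both controls and 18.6% above. The AP-1 factor is a dimer of a JUN protein with a FOS, JUN or ATF protein, and JUNB, encoded without introns, often acts as the less active partner beside JUN. JUNB (ENSG00000171223, chromosome 19, 12791496 to 12793315, plus strand, GRCh38) was at 24.6 and 26.5 TPM in sh-NC, against 9.19 and 11.9 TPM in sh-PURB. The control libraries lay close together, and the higher knockdown library was far under the lower control. The ratio of means was 0.413, and the difference of -1.21 (SE 0.16) had a limma adjusted p of 0.0673, or 0.0105 among protein-coding genes alone and 0.0412 with the filter at 5 TPM, in a range of 0.0105 to 0.277 over 15 alternatives. An exon of HOOK2, on the opposite strand, shares bases with JUNB, and the sources used here do not say whether strand was used in counting. HOOK2 itself was at 2.99 and 5.31 TPM in sh-NC, against 4.89 and 13.1 TPM in sh-PURB.

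FOS and FOSB varied more between libraries of a group than between the groups. FOS, the classic serum-induced gene and a partner of all JUN proteins, was at 9.26 and 79.1 TPM in sh-NC, against 2.04 and 40.5 TPM in sh-PURB. Replicate 2 was the higher library in both groups, so the groups overlapped widely. FOSB, its closest relative, was at 0.391 and 4.91 TPM in sh-NC, against 0.148 and 2.11 TPM in sh-PURB, with the same order of libraries. The limma adjusted p was 0.737 for FOS and 0.789 for FOSB, with differences of -1.35 (SE 1.53) and -0.60 (SE 0.83). Their direction did not hold when a library was left out: without sh-PURB replicate 1 the difference was 0.53 for FOS and 0.12 for FOSB, and without sh-NC replicate 2 it was 0.13 and 0.44. What sets the replicate 2 libraries apart is not given in the labels. With the replicate number as a block, the difference of FOS stayed at -1.35 with an SE of 0.23 (limma adjusted p = 0.0879). That of FOSB stayed at -0.60 with an SE of 0.23 (limma adjusted p = 0.252). This fit left 1 residual degree of freedom, and the labels do not say that same-numbered libraries were made together.

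The groups of the other AP-1 genes overlapped as well. JUN, the founding member of the family, was at 9.63 and 14.95 TPM in sh-NC, against 8.48 and 12.7 TPM in sh-PURB, and JUND, the constitutively expressed member, at 14.4 and 14.99 against 14.0 and 17.4 TPM. For both genes the groups overlapped, with differences of -0.19 (SE 0.28) and 0.08 (SE 0.15). FOSL1 and FOSL2, the FRA proteins that follow sustained ERK activity, had ratios of 0.773 and 0.833. The summed AP-1 level was 70.8 and 156 TPM in the sh-NC libraries, against 46.1 and 95.3 TPM in sh-PURB, of which the FOS family held 22.2, 99.6, 14.4 and 53.3 TPM in the same order of libraries.

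**Figure D3:**
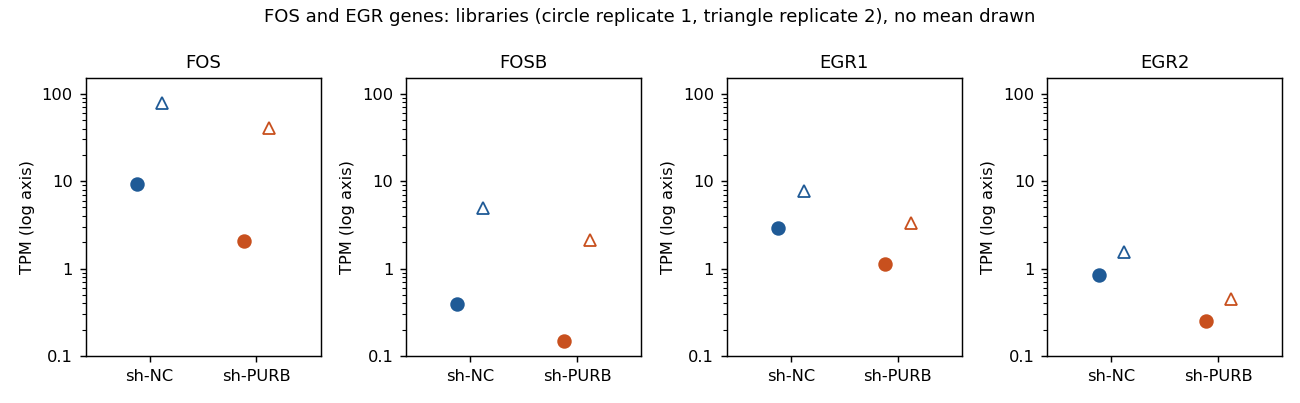
TPM of FOS, FOSB, EGR1 and EGR2 in each library on a log axis shared by all panels, sh-NC in blue and sh-PURB in orange, circles for replicate 1 and open triangles for replicate 2. Replicate 2 lies above replicate 1 in both groups in every panel, and only for EGR2 do the groups not overlap.

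The EGR zinc finger factors were low. EGR1, a direct target of SRF, was at 2.94 and 7.77 TPM in sh-NC, against 1.12 and 3.29 TPM in sh-PURB. Its groups overlapped because sh-PURB replicate 2 exceeded sh-NC replicate 1, and the limma adjusted p was 0.449 (difference -0.96, SE 0.515). With the replicate number as a block the SE was 0.138 and the limma adjusted p 0.0718. EGR2 was at 0.854 and 1.54 TPM in sh-NC, against 0.252 and 0.445 TPM in sh-PURB, and EGR3 at 0.217 and 0.138 against 0.0615 and 0.0457 TPM. Both lay under the filter, and in both the groups did not overlap. The 250 bases before the start of EGR1 (chr5:138465229-138465478, plus strand, RefSeq on GRCh38.p14) are shown because they hold 2 CArG boxes, the core of a serum response element, written in capitals:

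EGR1: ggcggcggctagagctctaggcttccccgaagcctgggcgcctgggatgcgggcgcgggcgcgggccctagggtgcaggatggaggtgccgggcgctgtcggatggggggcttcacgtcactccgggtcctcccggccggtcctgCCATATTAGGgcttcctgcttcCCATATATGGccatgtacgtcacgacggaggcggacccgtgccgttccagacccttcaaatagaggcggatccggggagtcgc

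A search of such windows for the CArG box (CC, 6 letters of A or T, GG), which reads the same on both strands, found a match for 3 of the 31 members with a window in the RefSeq promoter table (EGR1, EGR2 and SRF) and for 1.44% of all 27305 genes in it. In EGR1 the boxes lay at -105 to -96 and -83 to -74 from the start. SRF, the factor that binds the box, was at 3.59 and 3.30 TPM in sh-NC, against 3.93 and 3.47 TPM in sh-PURB, with overlapping groups.

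The KLF genes encode zinc finger factors related to SP1. KLF10, an early gene of TGF-beta signalling, was at 10.7 and 15.4 TPM in sh-NC, against 6.97 and 8.82 TPM in sh-PURB, with a ratio of 0.605 (difference -0.65, SE 0.22, limma adjusted p = 0.278). Its groups did not overlap. KLF6 was at 3.10 and 4.51 against 2.87 and 3.33 TPM with overlapping groups. KLF2, a gene of quiescent cells, was at 0.405 and 1.26 against 0.355 and 0.527 TPM, and KLF4, known from pluripotency, ranged from 0.0356 to 0.0731 TPM over the libraries.

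Of the 6 tested DUSP genes, 4 (66.7%) lay below both controls and none above, beside 29.3% and 18.6% of all tested genes. DUSP2, a nuclear phosphatase of ERK and p38, was at 6.76 and 9.68 TPM in sh-NC, against 4.29 and 4.48 TPM in sh-PURB, with a ratio of 0.533 (difference -0.76, SE 0.20, limma adjusted p = 0.190). DUSP5, a nuclear phosphatase selective for ERK, was at 9.52 and 7.04 TPM in sh-NC, against 6.34 and 3.50 TPM in sh-PURB, with a ratio of 0.594 (limma adjusted p = 0.362). In both genes the groups did not overlap. DUSP6, the cytoplasmic phosphatase most selective for ERK, was low throughout, at 0.631 and 0.363 TPM in sh-NC, against 0.131 and 0.171 TPM in sh-PURB. DUSP4 was lower still, at 0.0926 and 0.0714 against 0.0109 and 0.0350 TPM. Neither passed the filter on level, and the groups of each did not overlap.

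DUSP1, the nuclear phosphatase that acts mainly on p38 and JNK, was higher in replicate 2 of each group, at 5.45 and 11.2 TPM in sh-NC, against 7.52 and 11.4 TPM in sh-PURB, and its difference was 0.21 (SE 0.36). DUSP8, which favours JNK and p38, had a ratio of 1.28 with overlapping groups. DUSP7 and DUSP10 had ratios of 0.858 and 0.742, with both sh-PURB libraries below both controls and differences near their standard errors (-0.16, SE 0.18, and -0.26, SE 0.21). The 8 DUSP genes summed to 28.2 and 33.3 TPM in sh-NC and to 23.4 and 24.3 TPM in sh-PURB.

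Of the 3 Sprouty genes in the list, SPRY2 alone passed the filter on level. It was at 5.00 and 4.87 TPM in sh-NC, against 2.96 and 2.69 TPM in sh-PURB, and the libraries of each group lay close together. The ratio was 0.572 and the difference -0.63 (SE 0.16) had a limma adjusted p of 0.168. SPRY1 had 0.262 and 0.1003 TPM in sh-NC, and in sh-PURB was listed at 0 in replicate 1 and at 0.00936 TPM in replicate 2. SPRY4 was at 0.0388 and 0.0307 against 0.00885 and 0.0129 TPM. These 2 genes were below the filter, and a listed 0 can be a failed estimate, so no fold is drawn from them.

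The SPRED genes, whose products bind neurofibromin and bring it to RAS, had smaller differences. SPRED2 was at 9.76 and 9.88 TPM in sh-NC, against 7.99 and 7.95 TPM in sh-PURB. The libraries of each group nearly coincided and the ratio was 0.812 (difference -0.27, SE 0.13, limma adjusted p = 0.395). SPRED3 had a ratio of 0.756 without overlap, and SPRED1 a ratio of 0.925 with overlapping groups. Recomputed TPM turned the SPRED1 difference from -0.12 to 0.01.

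Promoter windows of SPRY2 and JUNB are shown because the protein under study binds purine-rich single strands. Each shown window holds a run of 4 GGN triplets, on the strand opposite to the gene. SPRY2 has other windows in the RefSeq promoter table, and these hold no match to any motif searched. Matches to any motif searched are in capitals, in the 250 bases before the RefSeq start on GRCh38.p14, for SPRY2 at chr13:80341127-80341376 (minus strand) and for JUNB at chr19:12791236-12791485 (plus strand):

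SPRY2: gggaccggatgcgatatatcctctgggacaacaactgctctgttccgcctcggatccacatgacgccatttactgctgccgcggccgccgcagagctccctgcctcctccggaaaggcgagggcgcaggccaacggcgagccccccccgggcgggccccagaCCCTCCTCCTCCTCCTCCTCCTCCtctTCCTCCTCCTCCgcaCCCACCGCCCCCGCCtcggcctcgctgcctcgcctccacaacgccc

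JUNB: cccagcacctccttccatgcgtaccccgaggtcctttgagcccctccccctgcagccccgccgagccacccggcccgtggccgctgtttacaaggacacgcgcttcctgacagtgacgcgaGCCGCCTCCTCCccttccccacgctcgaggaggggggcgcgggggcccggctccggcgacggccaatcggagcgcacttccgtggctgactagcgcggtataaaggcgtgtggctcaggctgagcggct

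The repeat was found, on either strand, for 16 of the 31 members with a window (51.6% of them), beside 20.5% of all genes in the table and 31.1% of the 10258 of them tested here. The members with a match include genes that differed little, such as DUSP7 and FOSL2, and MAP3K8, which was higher (at -103 to -92 of a window), and those without one include PHLDA1. Members with several starts had several windows. Counted by window, 17 of 48 held the repeat, beside 18.0% of all windows. The share among windows of tested genes was not computed, and by gene the tested genes had the higher share. A match is a run of letters in the reference and not a measured binding site. The 8 members without a window were FOSL1, EGR3, KLF10, DUSP4, DUSP5, ETV4, ETV5 and IER3.

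Of the PEA3 group of ETS factors, ETV1 and ETV4 were lower and ETV5 was level. ETV1 was at 6.96 and 7.45 TPM in sh-NC, against 3.97 and 4.84 TPM in sh-PURB, with a ratio of 0.611 (difference -0.61, SE 0.16, limma adjusted p = 0.186). ETV4 was at 23.3 and 20.7 TPM in sh-NC, against 17.9 and 10.3 TPM in sh-PURB, with a ratio of 0.641 (limma adjusted p = 0.347). Neither gene's groups overlapped, but the sh-PURB libraries of ETV4 were far apart. ETV5, the third member of the group, was at 12.7 and 14.4 against 16.1 and 12.7 TPM, with a difference of 0.08 (SE 0.16). Differences among the 3 genes were not tested.

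MAP3K8 showed the largest difference of the list. It encodes TPL2, also called COT, a kinase that activates MEK and thereby ERK downstream of inflammatory receptors. MAP3K8 (ENSG00000107968, chromosome 10, 30433937 to 30461833, plus strand) was at 3.65 and 4.02 TPM in sh-NC, against 22.8 and 37.8 TPM in sh-PURB. Both knockdown libraries were far above both controls, and the mean was 7.91 times that of sh-NC (means ± SD of 3.83 ± 0.262 and 30.3 ± 10.6 TPM, n = 2 in each group). The difference of 2.65 (SE 0.26) had a limma adjusted p of 0.0501, just above the threshold. It was past the threshold in 7 of 15 alternatives, with limma adjusted p-values of 0.00209 among protein-coding genes to 0.243 with a library left out, and its difference stayed between 2.30 and 3.01 in all 15. The 7 include the filter at 5 TPM, which MAP3K8 passed through the sh-PURB libraries alone. No other gene's exons share bases with MAP3K8 in GENCODE.

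Of the 3 starts of MAP3K8 in the RefSeq table, the window of the middle one holds the AP-1 motif TGANTCA, shown in capitals with 10 bases on each side (chr10:30434123-30434149, plus strand), since AP-1 genes are in the same list:

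MAP3K8: tcagacgccgTGAGTCAggggcagagc

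That motif was found for 2 of the 31 members (MAP3K8 and SPRED3), beside 8.06% of all genes in the table and 6.38% of tested genes. It reads the same on both strands. The MAP3K8 window that holds it overlaps an annotated exon of MAP3K8. The cyclic AMP element TGACGTCA was found for 4 members (DUSP1, DUSP8, JUND, ZFP36L1), beside 2.03% of all genes and 3.60% of tested genes. The ETS motif CCGGAAGT and the EGR motif GCGTGGGCG were in no member's window, beside 4.13% and 0.886% of all genes and 8.51% and 1.62% of tested genes.

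Among the other early response genes, PHLDA1 and IER3 had the lowest differences on the log2(TPM + 1) scale. PHLDA1 (ENSG00000139289, chromosome 12, 76025447 to 76033932, minus strand), a pleckstrin-like protein whose messenger follows ERK activity, was at 19.9 and 23.6 TPM in sh-NC, against 3.53 and 6.46 TPM in sh-PURB. Its mean was 4.35-fold lower (difference -1.96, SE 0.27, limma adjusted p = 0.0716, and 0.00866 to 0.277 over 15 alternatives). IER3 (ENSG00000137331, chromosome 6, 30743199 to 30744554, minus strand), which prolongs ERK phosphorylation and modulates survival, was at 37.8 and 37.1 TPM in sh-NC, against 19.7 and 15.2 TPM in sh-PURB. Its mean was 2.15-fold lower (difference -1.07, SE 0.15, limma adjusted p = 0.0744, and 0.0166 to 0.272 over 15 alternatives). The antisense gene IER3-AS1, which shares bases with its exons, did not exceed 0.453 TPM in any library.

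The IER genes lay on both sides of control. IER2, a nuclear early response protein, was at 9.88 and 15.7 TPM in sh-NC, against 6.37 and 8.11 TPM in sh-PURB, with a ratio of 0.567 (limma adjusted p = 0.284). IER5, which is related to IER2 by sequence and acts with the heat shock factor HSF1, was at 7.89 and 8.61 TPM in sh-NC, against 9.01 and 11.9 TPM in sh-PURB, with a ratio of 1.27 (difference 0.30, SE 0.18, limma adjusted p = 0.487). The groups of neither gene overlapped. IER2 and JUNB are 357099 bases apart on chromosome 19, which carries 7 of the 39 genes (JUNB, IER2, KLF2, JUND, SPRED3, ZFP36 and FOSB).

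ZFP36, which encodes tristetraprolin, was at 1.16 and 1.91 TPM in sh-NC, against 0.683 and 0.647 TPM in sh-PURB. It passed the filter through the control libraries alone (ratio 0.433, limma adjusted p = 0.356). ZFP36L1, its relative, was at 9.89 and 10.2 against 7.54 and 9.65 TPM, a ratio of 0.856. ATTTA, the pentamer in the AU-rich elements these proteins bind, occurred at least 3 times in the 3′ UTR of 25 of the 39 genes (64.1%), beside 40.8% of 11640 tested protein-coding genes. The members' 3′ UTRs were longer, with a median of 1234 against 999.5 bases, and per kilobase the median was 1.89 against 1.58 copies. PHLDA1 had 14 copies, IER3 6, JUNB 2 and MAP3K8 1.

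**Figure D4:**
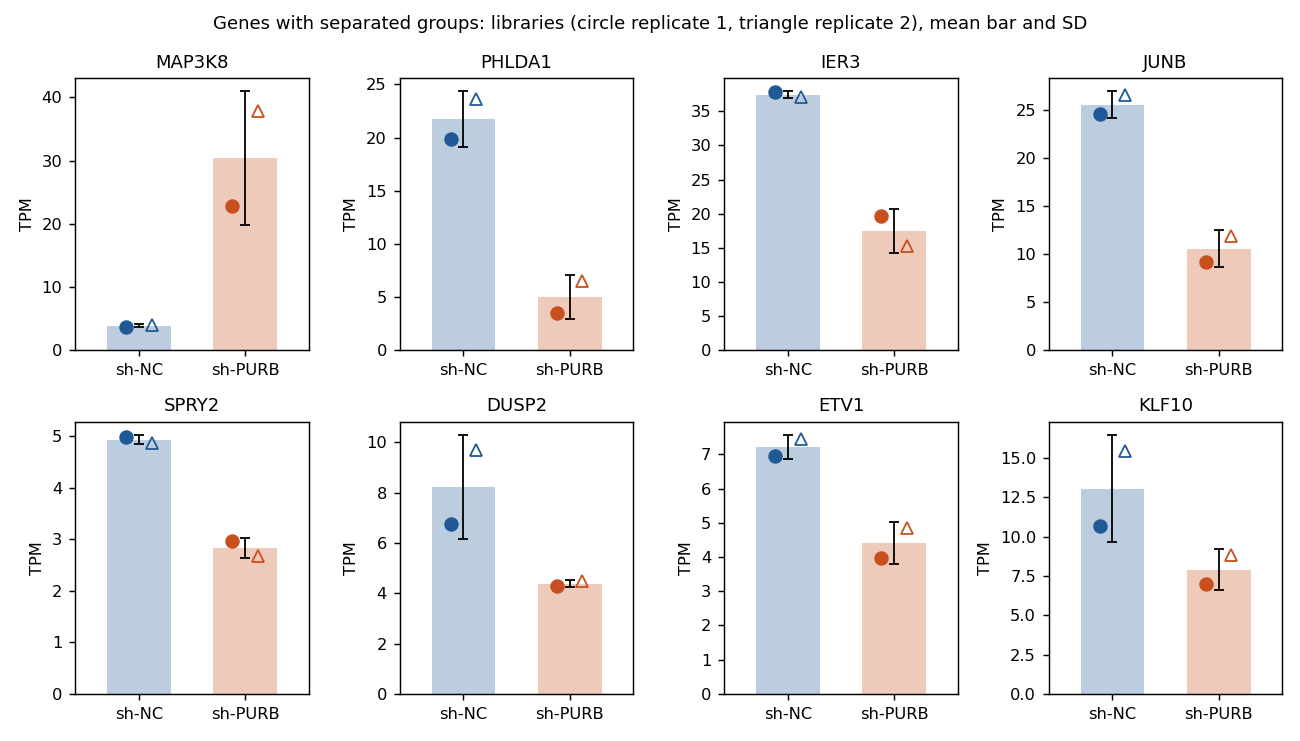
TPM of 8 genes whose groups did not overlap, with a bar for the mean, a line for the SD (n = 2) and a point for each library, circles for replicate 1 and open triangles for replicate 2. MAP3K8 is 7.91 times control, and the other 7 lie between 0.230 (PHLDA1) and 0.611 (ETV1) of control.

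None of the 8 members below the filter had 2 libraries at 1 TPM, and the highest value among them was 1.54 TPM (EGR2, sh-NC replicate 2). In 6 of the 8 both sh-PURB libraries lay below both controls, KLF2 and KLF4 being the exceptions, and in none did they lie above. The share among all genes under the filter was not computed, so the 6 are a description only. Over all 39 genes the count below both controls was thus 22, beside 24.1% of the 27206 genes that were above 0 in any library. The count above both controls was 2, beside 15.3%. The 22 include SPRY1 and SPRY4, which cannot be told from background. The fit without the filter called none of the 39 and, over all genes, none at all.

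In the kinase cascade itself most differences were small. Genes of the pathway outside the 39 were read from lists drawn up by function, with earlier results known. Of 27 cascade genes from SHC1 and GRB2 through RAS, RAF, MEK and ERK to the RSK and MNK kinases, limma called 0. At an unadjusted p under 0.05 it gave 1 higher and 2 lower, beside 5.77% and 9.53% of all tested genes. In 12 (44.4%, beside 29.3% of all tested genes) both sh-PURB libraries lay below both controls. In 1 (3.70%, beside 18.6%) they lay above, and the median difference was -0.11. The genes at an unadjusted p under 0.05 were SHC1, an adaptor at growth factor receptors (ratio 0.749), SHOC2, which helps activate RAF (0.774), and PTPN11, encoding the phosphatase SHP2 (1.25). MAPK3, encoding ERK1, had a ratio of 0.837.

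Of 5 SRF partner genes, 3 (60.0%, beside 29.3% of all tested genes) lay below both controls and limma called 0 (0 at an unadjusted p under 0.05). They were the ternary complex factors ELK1, ELK3 and ELK4, with ratios of 0.808, 0.709 and 0.732. Among 8 tested dimer partners of AP-1 limma called 0, and the list had a median of 0.04. At an unadjusted p under 0.05 it gave 2 higher and 1 lower, beside 5.77% and 9.53% of all tested genes. MAFF, a small MAF protein, was at 44.8 and 42.0 TPM in sh-NC, against 12.6 and 18.2 TPM in sh-PURB, for a limma adjusted p of 0.0673. JDP2, a repressor that pairs with JUN, was at 9.83 and 8.41 TPM in sh-NC, against 19.6 and 16.3 TPM in sh-PURB, for a limma adjusted p of 0.0944. ATF3, which belongs also to the integrated stress response, was at 2.06 times control (limma adjusted p = 0.180). ATF2, a partner of JUN that p38 and JNK phosphorylate, had a ratio of 0.856. BATF was listed at 0 in every library.

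Of 30 other ERK-responsive genes 26 were tested and limma called 0, and at an unadjusted p under 0.05 it gave 12 lower and 4 higher, beside 9.53% and 5.77% of all tested genes. In 13 of the 26 both sh-PURB libraries lay below both controls and in 5 (19.2%) above, beside 29.3% and 18.6% of all tested genes, and the median difference was -0.25. ERRFI1, whose product MIG6 inhibits the EGF receptor, was at 46.9 and 51.9 TPM in sh-NC, against 16.7 and 12.4 TPM in sh-PURB, for a limma adjusted p of 0.0517. EREG and TGFA, ligands of that receptor, had ratios of 0.285 and 0.165, and the kinase gene SGK1 a ratio of 0.301, with limma adjusted p-values of 0.0544 to 0.0615. AREG, a further ligand, was on the other side of control at a ratio of 2.73 but with sh-PURB libraries at 14.8 and 5.65 TPM, and it is named after its values were seen.

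Phosphatases outside the list and the p38 and JNK kinases had medians near 0. Of 6 tested phosphatase genes limma called 0. At an unadjusted p under 0.05, where 9.53% of all tested genes were lower, 1 was lower. That was DUSP9, a cytoplasmic ERK phosphatase, at 5.49 and 5.50 TPM in sh-NC, against 1.86 and 2.36 TPM in sh-PURB, for a limma adjusted p of 0.0854. DUSP3 and DUSP14 had ratios of 1.23 and 1.33 with both sh-PURB libraries above both controls. They were 2 of the 6 (33.3%), beside 18.6% of all tested genes. Of 9 tested p38 and JNK pathway genes limma called 0. At an unadjusted p under 0.05, beside the same 9.53%, 1 was lower, MAPK14, encoding p38 alpha (ratio 0.733). MAP2K4, a kinase of JNK and p38, and MAPK8, encoding JNK1, had ratios of 0.806 and 0.881, also below both controls in both libraries. In this list 3 of the 9 (33.3%) lay below both controls, close to the 29.3% of all tested genes. The medians of these lists were 0.01 and 0.03.

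**Figure D5:**
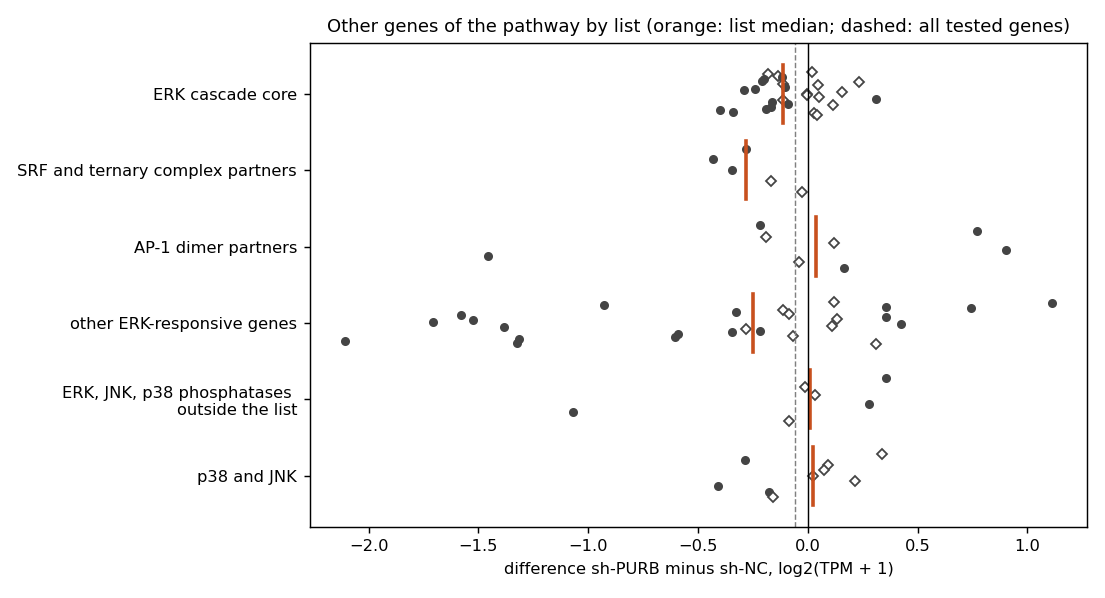
Difference of each tested gene of 6 pathway lists between sh-PURB and sh-NC on the log2(TPM + 1) axis, filled circles where the groups do not overlap and open diamonds where they do. Orange bars mark list medians, from -0.28 (SRF partners) to 0.04 (AP-1 dimer partners), and the dashed line the median of all tested genes at -0.06.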

How the data were processed

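RNA-seq after removal of ribosomal RNA covered 2 sh-NC and 2 sh-PURB libraries of U2OS cells, grouped by their titles. The authors deposited TPM by gene symbol. Tools listed in the submitters' processing notes are kallisto 0.44.0, bcl2fastq 2.19, DESeq2 and sleuth, and the builds listed are GRCm38 and GRCh38, none with a role. Transcript summing and strand setting are not given in the sources used here. Reads that overlapping genes share can be split between them, and 8 of the 39 members share exon bases with another gene (JUNB, EGR3, DUSP6, ETV4, ETV5, IER2, IER3, PHLDA1). Each library's own file equalled the joint table (4 of 4). A row with no gene name, 0.921% to 1.66% of a library, was left out. TPM keeps no depth, so no counting interval is given.

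The members and lists were chosen with earlier results of these data known. Genes at 1 TPM or more in at least 2 libraries (14269) were compared as log2(TPM + 1), a pseudocount of 1, in limma 3.58.1 under R 4.3.3 with an intensity trend (2 residual and 2.92 prior degrees of freedom). Benjamini-Hochberg adjustment covered the whole table of tested genes, and 0.05 was the threshold. The fit was run on 10 simulated data sets with changes planted in 200 of 14269 genes, 2-fold or 4-fold on the log2(TPM + 1) scale. It called 87.7% of the 2-fold and 99.9% of the 4-fold changes, and 6.42% of its calls were false. Simulated libraries varied independently, with a spread averaged over genes of similar level, so these shares need not hold for the libraries here. Values of every library were given for members whose groups did not overlap and that differed by at least 0.5 on the log2 scale, and, from each pathway list, genes without overlap and of smallest unadjusted p, up to 4, were named. Values of other members, in particular FOS, FOSB, EGR1 and those below the filter, were added after they were seen. Gene models came from GENCODE 29 on GRCh38 and promoter windows from RefSeq on GRCh38.p14. Motif matches were searched on both strands in the 250 bases before each start. Alternatives were 2 other pseudocounts, no filter and a filter at 5 TPM, 3 other scalings, protein-coding genes alone, robust moderation or no trend in limma, a block for the replicate number, and each library left out in turn. Plots used matplotlib 3.10.9 under Python 3.11.15.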

Additional observations from a re-analysis of the deposited data

How the results depend on the processing

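Of the 31 tested members, 22 kept the direction of their difference in each alternative that could give one, and 9 reversed in at least 1. Recomputed TPM gave SPRED1 0.012. Leaving out a library gave ranges of -3.24 to 0.53 for FOS, -1.65 to 0.44 for FOSB, -0.64 to 0.0025 for FOSL1, -0.46 to 0.022 for FOSL2, -0.49 to 0.10 for JUN, -0.069 to 0.23 for JUND, -0.24 to 0.67 for DUSP1, -0.38 to 0.13 for SPRED1 and -0.083 to 0.23 for ETV5. The cause of these reversals was not tested. The 41 genes called over all genes became 0 with a pseudocount of 0.1, with no filter and without the trend, 60 with recomputed TPM, 84 with median-ratio rescaling, 118 with quantile normalization, 121 with the filter at 5 TPM, 125 with robust moderation and 407 among protein-coding genes. Members called went from 0 to 4 with the filter at 5 TPM and among protein-coding genes, and to 1 (MAP3K8) with median-ratio rescaling, quantile normalization, recomputed TPM and robust moderation. With recomputed TPM 10 members lay below both controls and 4 above, in place of 16 and 2. PURB had a difference of -1.07 among protein-coding genes, where it passed the threshold. Leaving out a library left 1 residual degree of freedom and 0 calls, and the members above control numbered 4 to 5 (27.0% to 33.2% of all genes lay above), those below 17 to 23 (37.98% to 49.4% of all genes), and the median difference was -0.46 to -0.19.

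The replicate number is no more than a number in the labels. Deviations of same-numbered libraries from their group means correlated at 0.193 across genes. With the number as a block, 118 genes were called and 2 members, MAP3K8 (limma adjusted p = 0.0408) and PHLDA1 (0.0463). TPM values hide the depth, so low members such as SPRY1 and SPRY4 cannot be told from background here.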

Other observations

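Of the 31 tested members, 18 (58.1%) were higher in replicate 2 than in replicate 1 in both groups, beside 42.9% of all tested genes. FOS was 8.54 times as high in replicate 2 as in replicate 1 of sh-NC and 19.9 times in sh-PURB, and FOSB 12.6 and 14.2 times. EGR1 was 2.64 and 2.94 times as high. These 3 members were over 2-fold higher in replicate 2 in both groups, beside 1.98% of all tested genes. Taken within a number, sh-PURB was at 0.220 and 0.512 of sh-NC for FOS, at 0.379 and 0.429 for FOSB, at 0.381 and 0.424 for EGR1 and at 0.295 and 0.290 for EGR2. JUNB, which replicate 2 raised little in either group (1.08 and 1.30 times), was at 0.374 and 0.449. The genes were picked after these values were seen, and the labels do not say that same-numbered libraries were made together, so these ratios are a description.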
